A study of Mus musculus with 12 samples.

Results

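Bdnf and Inhba are genes for secreted growth factors that neurons transcribe more strongly after activity. Every probe set annotated with either symbol on the Affymetrix MG-U74Av2 array was taken. Each gene has 1, so that 2 of 12488 probe sets, for 2 of 8252 annotated genes, are described here. The arrays measured polyA RNA from mouse hippocampus with and without VP16-CREB, a form of the transcription factor CREB that carries a viral activation domain and is active without stimulation. In the transgenic mice (VC), doxycycline (dox) keeps the transgene off and its withdrawal turns it on. Induced hippocampus stands for 5 VC arrays: 2 arrays made 1 week after withdrawal, 2 arrays at 2 weeks and 1 array at 5 weeks. A further VC sample had the transgene on for 3 weeks and then off for 2 weeks on dox (n = 1, called reversed). The never-induced group held VC hippocampus kept on dox (n = 1) and wild-type hippocampus (n = 2). Microdissected CA1, the field of pyramidal cells that receives input from CA3, was measured on 2 arrays of VC mice without dox for 3 weeks and on 1 array of wild-type mice housed alike. Each hippocampal array held RNA pooled from 6 to 10 mice, and the labels name no age, sex, strain or transgene promoter. The reversed sample is called VC in its title and wild type in its description, and was taken as VC reversed.

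BDNF is a neurotrophin. It is made as a precursor that proteases such as furin and plasmin cut, and the mature form binds the receptor TrkB (gene Ntrk2), which signals through Ras, phosphoinositide 3-kinase and phospholipase C gamma and strengthens hippocampal synapses. Inhba encodes the beta A subunit of activin A, a member of the TGF-beta family that signals through type II and type I activin receptors and Smad proteins, and that follistatin (Fst) binds and blocks. In mature hippocampus both transcripts are known to rise after seizures or strong synaptic stimulation, and CREB is a known regulator of Bdnf.

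Because CREB binds the cAMP response element (CRE), the 250 bases before each listed RefSeq transcript start of both genes (GRCm38.p6) were searched on both strands for the full element TGACGTCA, its half-site TGACG or CGTCA, the AP-1 element TGAGTCA or TGACTCA and the TATA sequence TATAAA or TTTATA. Bdnf lies on chromosome 2 (chr2:109674700-109727043, plus strand) with 7 such windows, and Inhba on chromosome 13 (chr13:16004256-16031609, plus strand) with 1. The listed Inhba start lies inside that interval, so the bases before its first base, 16004256, were not searched. None of the 8 windows held a full CRE, which 1.55% of all 32851 RefSeq windows held, or an AP-1 element, which 4.46% held. Of the 7 Bdnf windows 1 held a half-site, which 17.8% of all windows held, and the Inhba window held the TATA sequence, which 12.4% held. The Bdnf window with the half-site (chr2:109692186-109692435) precedes the start at base 109692436, the activity-responsive promoter usually called promoter IV. The Inhba window covers chr13:16011601-16011850. Both are shown 5′ to 3′ on the plus strand, since they hold the only matches, with the half-site (Bdnf, its first base 35 bases before the start) and the TATA sequence (Inhba, 91 bases before the start) in capitals.

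Bdnf: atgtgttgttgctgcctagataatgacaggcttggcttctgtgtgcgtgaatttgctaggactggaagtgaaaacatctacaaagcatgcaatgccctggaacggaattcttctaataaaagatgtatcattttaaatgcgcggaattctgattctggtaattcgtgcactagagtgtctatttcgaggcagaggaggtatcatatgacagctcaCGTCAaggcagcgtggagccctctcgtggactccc

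Inhba: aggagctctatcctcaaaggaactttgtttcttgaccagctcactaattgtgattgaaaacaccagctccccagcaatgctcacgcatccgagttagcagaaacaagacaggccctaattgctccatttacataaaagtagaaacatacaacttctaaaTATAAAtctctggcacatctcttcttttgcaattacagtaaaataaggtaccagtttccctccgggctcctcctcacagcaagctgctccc

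These matches describe letters in a window and not bound sites. The array has 1 probe set per gene, and its target within the transcript was not analysed here. The values below therefore do not separate transcripts from the different Bdnf starts.

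Intensities were rescaled so that every array had the same trimmed mean, floored at 6.04 and given on the log2 scale. Pairs of hippocampal arrays correlated at 0.93 to 0.98, pairs of CA1 arrays at 0.91 to 0.95, and pairs of 1 array from each region at 0.83 to 0.92. Of the 12422 probe sets that are no controls, 7069 were tested, those above the median of their own array on at least 2 arrays. Bdnf was above it on all 12 arrays. Inhba was above it on 3 arrays, all of them induced: 2-week array 1 and both VC CA1 arrays. It therefore passed the filter only through arrays on which it was high. The CA1 arrays were checked with region markers: Wfs1, a CA1 pyramidal marker, read 11.44 and 12.02 in VC CA1 and 11.95 in wild-type CA1, against 11.48 to 11.62 in never-induced hippocampus, and Dsp, a dentate granule cell marker, read 8.31 and 9.59 in VC CA1 and 9.69 in wild-type CA1, against 10.68 to 10.88 in never-induced hippocampus. Dsp lay above the floor in CA1. Wfs1 on 1 VC CA1 array (11.44) lay below every never-induced hippocampal array. Pou3f1, also listed for CA1, overlapped on 1 VC array. It read 9.93 and 10.58 in VC CA1 and 10.56 in wild-type CA1, against 9.71 to 9.98 in never-induced hippocampus. Not every region marker followed its list: Dcn, listed for CA1, was lower in VC CA1 (10.98 and 11.04) and wild-type CA1 (11.24) than in never-induced hippocampus (11.66 to 12.22), and Man1a overlapped. The dentate marker Lct read 9.94 in wild-type CA1, against 9.99 to 10.04 in never-induced hippocampus.

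In induced hippocampus, Bdnf signal was higher on every array than in never-induced hippocampus. The 1-week arrays read 11.73 and 12.05, the 2-week arrays 12.17 and 11.99 and the 5-week array 12.30, against 11.26 and 11.30 in wild-type hippocampus and 11.40 in VC hippocampus on dox. The groups did not overlap, and the lowest induced array was a 1-week one. The mean was 12.05 ± 0.22 (SD, n = 5) in induced and 11.32 ± 0.07 (SD, n = 3) in never-induced hippocampus, a 1.65-fold difference with a 95% interval from 1.33-fold to 2.05-fold. An exact two-sided permutation test over the 8 arrays gave p = 0.0179, the smallest that its 56 arrangements allow. Across all probe sets the comparison did not pass (limma, adjusted p = 0.826), although only 2 probe sets had a smaller p.

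Inhba signal was also higher on each induced hippocampal array than on the never-induced ones, by a narrower margin. The 1-week arrays read 8.23 and 8.29, the 2-week arrays 8.84 and 7.92 and the 5-week array 8.17, against 7.52 and 7.84 in wild-type hippocampus and 7.83 in VC hippocampus on dox. The groups did not overlap, but 2-week array 2 (7.92) lay close above wild-type array 1 (7.84), and the 2-week arrays were the highest and the lowest of the induced ones. The mean was 8.29 ± 0.34 (SD, n = 5) in induced and 7.73 ± 0.18 (SD, n = 3) in never-induced hippocampus, a 1.47-fold difference (log2 difference 0.56, 95% interval 0.13 to 0.98). The exact two-sided permutation test gave p = 0.0536, against a smallest possible p of 0.0179. Over all probe sets the comparison did not pass (limma, adjusted p = 0.999).

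Neither gene passed here, where 0.0283% of the tested probe sets did (2 of 7069, with 223 at an unadjusted p under 0.05). Complete separation of the induced above the never-induced hippocampal arrays was seen for Bdnf and for 1.71% of tested probe sets. The log2 difference was larger than that of Bdnf for 1.51% of tested probe sets, and the median over all of them was -0.02. Inhba, which was tested only because of its induced arrays, is not set against these shares.

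**Figure D1:**
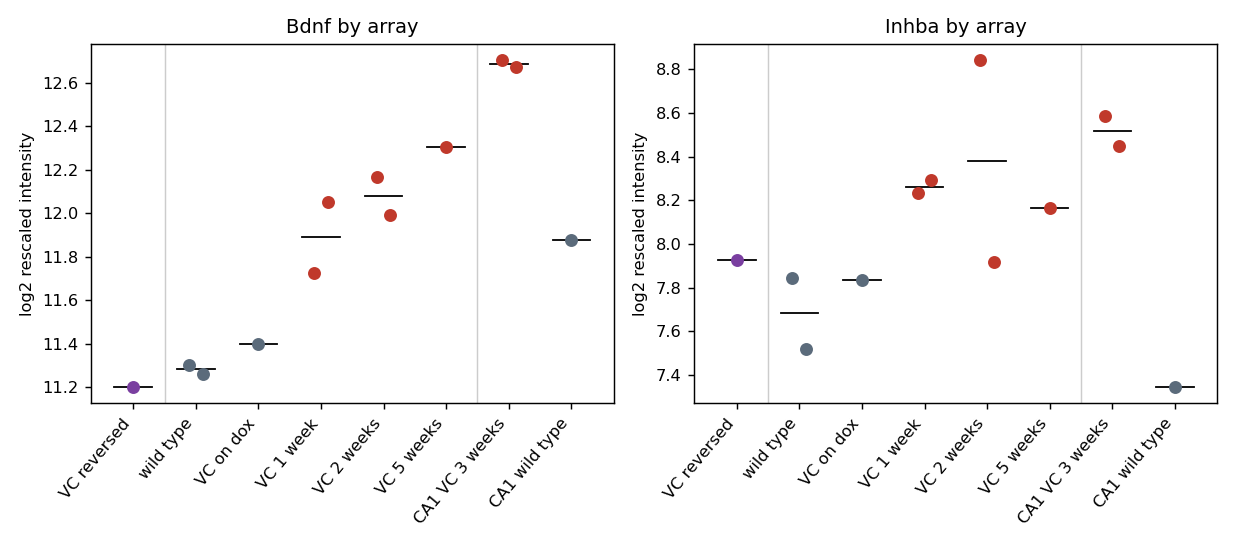
Each point is the log2 rescaled intensity (vertical axis) of Bdnf (left panel) or Inhba (right panel) on 1 array, with black lines at group means, the reversed array in purple, induced arrays in red and uninduced arrays in grey. Induced arrays lie above the uninduced arrays of the same region for both genes, and the 2-week Inhba arrays, 8.84 and 7.92, span the induced range.

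Within the induced hippocampus, the times were compared next. Bdnf averaged 11.32 ± 0.07 (SD, n = 3) in never-induced hippocampus, 11.89 ± 0.23 (SD, n = 2) at 1 week, 12.08 ± 0.12 (SD, n = 2) at 2 weeks and 12.30 on the 5-week array. Against never-induced hippocampus these were 1.48-fold, 1.69-fold and 1.97-fold higher. None passed in limma: adjusted p was 0.943 at 1 week, where 0.0283% of tested probe sets passed, 0.215 at 2 weeks (0.156% passed) and 0.0803 at 5 weeks (0.99% passed). With limma's trend and robust settings the 5-week comparison passed, with the same difference of 0.98 and an adjusted p of 0.0291. Group means were in the order of time, but the direct comparison of 5 weeks with 1 week gave a log2 difference of 0.41 with a 95% interval from -0.07 to 0.90 (limma, adjusted p = 0.853, where 0.637% of probe sets passed). The 1-week array 2 (12.05) and the 2-week array 2 (11.99) were in the opposite order to their times.

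Inhba showed no such order. Its mean was 7.73 ± 0.18 (SD, n = 3) in never-induced hippocampus, 8.26 ± 0.04 (SD, n = 2) at 1 week, 8.38 ± 0.65 (SD, n = 2) at 2 weeks and 8.17 on the 5-week array. These were 1.44-fold, 1.56-fold and 1.35-fold above never-induced hippocampus, and none passed in limma (adjusted p = 0.969, 1 and 0.928). The difference between 5 weeks and 1 week was -0.10, with a 95% interval from -0.89 to 0.69 (limma, adjusted p = 0.997). The 2-week value rests on 1 array: without 2-week array 1 the difference from never-induced hippocampus was 0.18, and without 2-week array 2 it was 1.11. Between 2 weeks and 1 week the difference was 0.19 (95% interval -0.20 to 0.58) for Bdnf and 0.12 (-0.53 to 0.76) for Inhba, in a limma comparison in which 0% of probe sets passed and 672 had an unadjusted p under 0.05.

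The uninduced transgene was compared with wild type. VC hippocampus on dox read 11.40 for Bdnf, against 11.26 and 11.30 in wild-type hippocampus, and 7.83 for Inhba, against 7.52 and 7.84. The log2 difference was 0.12 (95% interval -0.42 to 0.65) for Bdnf and 0.15 (-0.71 to 1.01) for Inhba, and in limma 0% of probe sets passed, with 100 at an unadjusted p under 0.05.

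The reversed sample asked what either gene does once the transgene is turned off again. Bdnf read 11.20 on the reversed array, below each of the 5 induced arrays (11.73 to 12.30) and also below the 3 never-induced ones (11.26 to 11.40). It was the lowest of the 9 hippocampal arrays. A reversed array below every induced one was seen for 11.7% of tested probe sets, and below every other hippocampal array for 8.4%. The log2 difference from induced hippocampus was -0.85 with a 95% interval from -1.31 to -0.38, and did not pass in limma (adjusted p = 0.996, with 0% of probe sets passing and 181 at an unadjusted p under 0.05). The difference from never-induced hippocampus was -0.12 with a 95% interval from -0.61 to 0.37 (limma, adjusted p = 1, with 0% of probe sets passing and 180 at an unadjusted p under 0.05).

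Inhba read 7.93 on the reversed array, above the never-induced arrays (7.52 to 7.84) and within the range of the induced ones (7.92 to 8.84). Its difference from induced hippocampus was -0.36 (95% interval 0.500-fold to 1.21-fold) and from never-induced hippocampus 0.20 (-0.48 to 0.87), and neither passed in limma (adjusted p = 1 for both). On that scale 0.351 of the mean Inhba rise was left after reversal, whereas Bdnf lay below its never-induced mean. With 1 reversed array this difference between the genes has no replicate. On the same array a Creb1 probe set that is high on every induced array, picked by its values, read 7.10, against 8.31 to 9.63 in induced and 6.04 to 6.33 in never-induced hippocampus.

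In CA1 both genes were higher in VC than in wild type. Bdnf read 12.67 and 12.70 in VC CA1 and 11.88 in wild-type CA1, a 1.75-fold difference (95% interval 1.22-fold to 2.51-fold; limma, adjusted p = 0.233). Inhba read 8.45 and 8.59 in VC CA1 and 7.35 in wild-type CA1, a 2.25-fold difference (95% interval 1.37-fold to 3.69-fold; limma, adjusted p = 0.205). For both genes the VC arrays lay closer to each other than to wild type. Neither gene passed, where 0.467% of tested probe sets did (33 of 7069, with 708 at an unadjusted p under 0.05). Both VC arrays above the 1 wild-type array was seen for 29.4% of tested probe sets.

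Whether the effect differs between the regions was tested directly. The VC effect in CA1 minus the induced effect in whole hippocampus was 0.08 (95% interval -0.52 to 0.69) for Bdnf and 0.61 (-0.22 to 1.45) for Inhba on the log2 scale. Neither passed in limma (adjusted p = 0.999 and 0.967), where 0.0566% of probe sets did. For Bdnf this interval corresponds to 0.697-fold to 1.61-fold.

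Levels also differed between the regions. Bdnf was 1.56-fold higher in VC CA1 (12.69 ± 0.02, SD, n = 2) than in induced hippocampus (12.05 ± 0.22, n = 5), which passed in limma (adjusted p = 0.0221), as 19.5% of tested probe sets did. In wild-type CA1 it was 1.47-fold above never-induced hippocampus (11.88 against 11.32 ± 0.07, SD, n = 3) and did not pass (limma, adjusted p = 0.121, where 11.7% of probe sets passed). The wild-type CA1 array lay above the 1-week array 1 of induced hippocampus. Inhba read 8.52 ± 0.10 (SD, n = 2) in VC CA1 and 8.29 ± 0.34 (n = 5) in induced hippocampus, and 7.35 in wild-type CA1, the lowest Inhba value of all 12 arrays, against 7.73 ± 0.18 (n = 3) in never-induced hippocampus. Neither Inhba difference passed (limma, adjusted p = 0.478 and 0.41). All CA1 arrays and wild-type hippocampus array 1 were deposited on a lower scale than the other 8 arrays, and apart from that 1 array region and deposited scale cannot be told apart. Wild-type hippocampus arrays 1 and 2, of different scale, read 11.30 and 11.26 for Bdnf and 7.84 and 7.52 for Inhba.

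Taking both regions in 1 fit with region as a block compared 7 induced with 4 uninduced arrays. Bdnf was 1.68-fold higher (log2 difference 0.75 ± 0.12 SE, 95% interval 0.50 to 1.00) and Inhba 1.65-fold higher (0.72 ± 0.18 SE, 0.33 to 1.11). In an exact two-sided permutation test within region both genes gave p = 0.00595, the smallest that 168 arrangements allow; the Inhba arrays above their array's median were all induced ones. Over all probe sets neither passed in limma (adjusted p = 0.0886 for Bdnf and 0.377 for Inhba), while 2 probe sets (0.0283%) did and 486 had an unadjusted p under 0.05. For Bdnf the call depends on the setting: it passed with limma's trend and robust settings (adjusted p = 0.0157) and without 1-week array 1 (adjusted p = 0.0153). Every induced array above the uninduced arrays of its own region was seen for Bdnf and for 1.1% of tested probe sets, and Inhba is again not set against that share.

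**Figure D2:**
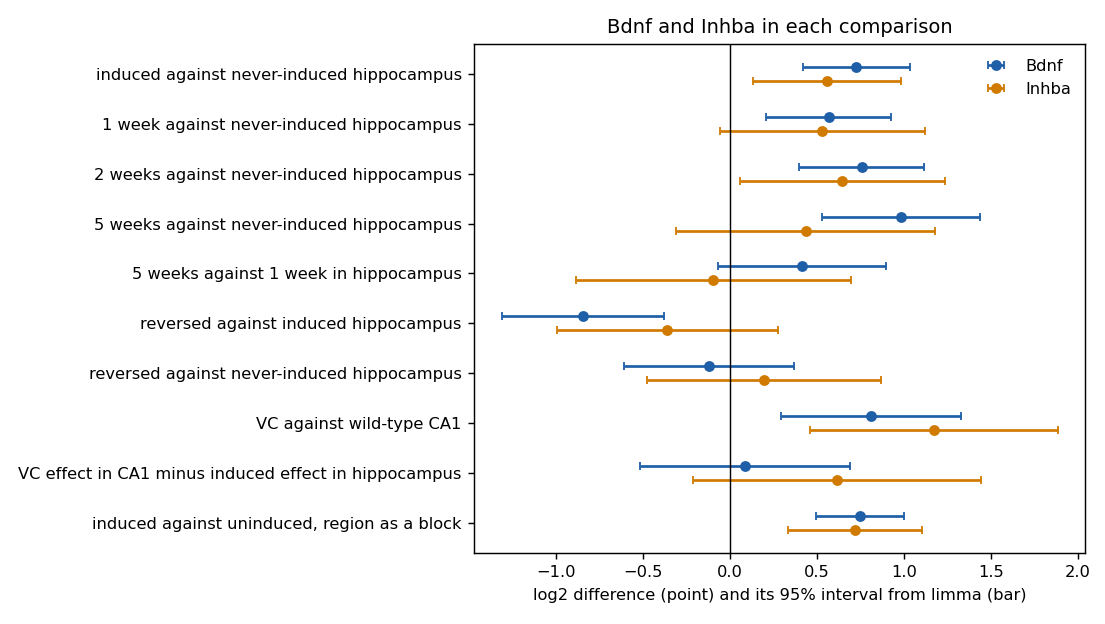
Points are log2 differences of Bdnf (blue) and Inhba (orange) in each of 10 comparisons, and bars are 95% intervals from limma. The intervals of both genes lie above 0 for induced against never-induced hippocampus, 2 weeks, VC against wild-type CA1 and the fit with region as a block, and the reversed array lies below induced hippocampus for Bdnf.

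Markers of other cell types differed in the same comparisons, although none of those listed here passed in induced against never-induced hippocampus taken over all times. Of 16 tested microglia and macrophage markers 15 were higher in induced hippocampus, where 45.65% of all tested probe sets were. In VC CA1 all 16 markers were higher, where 47.9% of all tested probe sets were. Their summed rescaled intensity ran from 19891 to 71249 on the induced and from 19376 to 22867 on the never-induced hippocampal arrays, and was 80579 and 81168 in VC CA1 and 28195 in wild-type CA1, where Cst7 and Lyz2 lay at the floor. At 1 week, when Bdnf was 1.48-fold and Inhba 1.44-fold above never-induced hippocampus, the median of this list was 0.00, and 8 of its 16 markers were higher. All 6 tested choroid plexus markers were higher in induced hippocampus, with sums from 7480 to 16997, against 5952 to 8672 in never-induced hippocampus, and 3 of 6 were higher in VC than wild-type CA1. At 1 week all 6 were higher, with a median of 0.62, and at 2 weeks 3 of 6, with a median of 0.09. Of all tested probe sets 48.2% were higher at 1 week, 48.0% at 2 weeks and 46.2% at 5 weeks. On the reversed array the choroid plexus sum was 5506, with all 6 below induced hippocampus, and the microglia and macrophage sum was 29832. In limma, 9 of the 16 microglia and macrophage markers passed at 5 weeks, 2 at 2 weeks and 2 in VC CA1, all of them higher. Of 11 tested astrocyte markers 9 were higher in induced hippocampus, and Gfap, the filament protein of astrocytes, passed at 2 and 5 weeks. At 5 weeks, where Bdnf was highest in hippocampus, all 9 tested interneuron markers were higher, with a median of 0.46, and all 5 tested dentate granule cell markers were lower, with a median of -0.75, Lct passing. Of 11 pan-neuronal markers 3 were higher in induced hippocampus, with sums from 94937 to 116012, against 102235 to 117602 in never-induced hippocampus. In bulk RNA, more cells of a type and more transcript per cell cannot be told apart, and the part of these marker shifts in the Bdnf and Inhba values was not tested.

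The partners of BDNF were examined as a list of 24 genes for its family, receptors and processing, of which 13 were on the array under their symbol and 9 were tested. None passed in a comparison of induced, reversed or VC CA1 arrays with their controls. In induced against never-induced hippocampus 2 of 9 were positive, and their median was -0.05, against -0.02 over all tested probe sets. Furin, a convertase that cuts proBDNF, read 10.67 ± 0.14 (SD, n = 5) in induced and 10.45 ± 0.17 (n = 3) in never-induced hippocampus, and Pcsk5, a related convertase, 8.66 ± 0.23 and 8.65 ± 0.43. Serpini1, the plasminogen activator inhibitor neuroserpin, read 13.08 ± 0.17 and 13.26 ± 0.07, and Plg, the plasmin precursor, 8.55 ± 0.12 and 8.73 ± 0.14. The Ntrk2 probe set lay at the floor on all 12 arrays and so gave no measure of TrkB. Ntrk3, the receptor of neurotrophin 3, lay under the filter, at 7.98 ± 0.39 in induced and 8.01 ± 0.28 in never-induced hippocampus.

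Signalling genes downstream of TrkB were next. Of 27 listed, 17 were on the array and 12 tested, 6 of them positive in induced against never-induced hippocampus, with a median of 0.01, and 6 positive in VC against wild-type CA1, with a median of -0.01. None passed. The largest positive differences were those of Camk2a, a kinase of the postsynaptic density (8.54 ± 1.56 in induced and 8.28 ± 1.11 in never-induced hippocampus), and Dusp6, a phosphatase that inactivates ERK (11.45 ± 0.16 and 11.20 ± 0.11). The largest negative ones were those of Sos1, a Ras exchange factor (8.55 ± 0.11 and 8.82 ± 0.18), and Akt1, a kinase below phosphoinositide 3-kinase (11.29 ± 0.10 and 11.46 ± 0.21).

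Of 25 genes for other activin and inhibin subunits, their receptors, Smads and inhibitors, 22 were on the array and 13 tested, and none passed in a comparison of induced, reversed or VC CA1 arrays with their controls. In induced against never-induced hippocampus 7 of 13 were positive, with a median of 0.03. Inha, the alpha subunit that turns an activin chain into inhibin, read 9.88 ± 0.17 (SD, n = 5) in induced and 10.15 ± 0.14 (n = 3) in never-induced hippocampus. Acvrl1, a type I receptor of the family, read 9.56 ± 0.22 and 9.82 ± 0.09. On the positive side were Fstl1, a follistatin-like secreted protein (8.81 ± 0.17 and 8.56 ± 0.34), and Tgfbr3, a co-receptor that binds inhibin (8.73 ± 0.26 and 8.53 ± 0.23). Inhbb, the beta B subunit, lay at the floor on 10 of 12 arrays.

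Fst, the extracellular antagonist of activin, lay under the filter and is named because of its values. The 1-week arrays read 6.04 and 7.48, the 2-week arrays 7.21 and 7.03 and the 5-week array 7.96, against 6.42 and 6.65 in wild-type hippocampus and 6.04 in VC hippocampus on dox. It read 6.04, the floor, after reversal. In CA1 it read 7.81 and 8.23 in VC and 6.04, the floor, in wild type. In hippocampus the groups overlapped, since 1-week array 1 was at the floor, and no test was made.

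**Figure D3:**
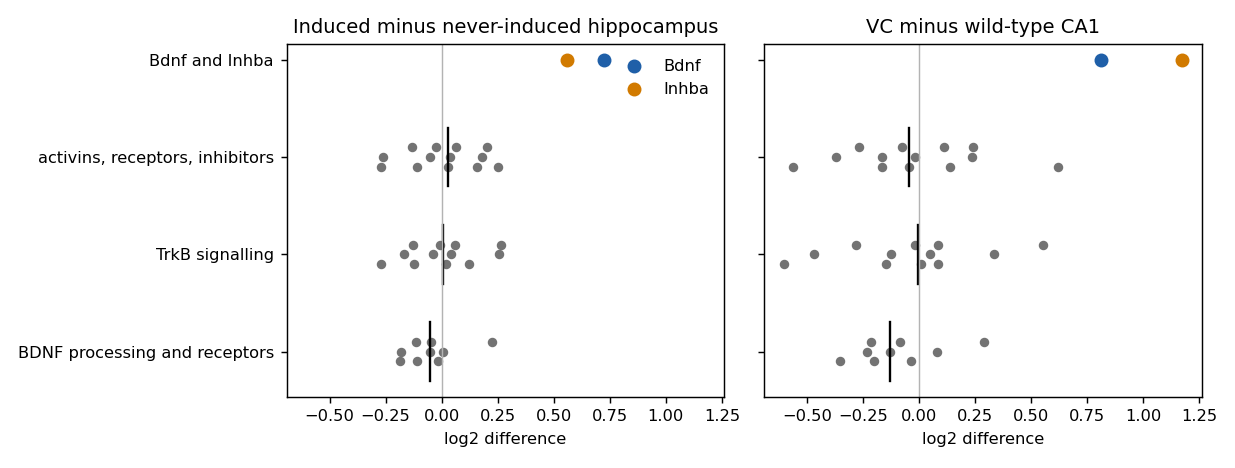
Grey points are log2 differences (horizontal axis) of the tested members of 3 lists in induced minus never-induced hippocampus (left) and VC minus wild-type CA1 (right), with black lines at list medians, and the top row shows Bdnf and Inhba. The list medians lie between -0.13 and 0.03, and Bdnf (0.73 and 0.81) lies to the right of every tested listed gene. Inhba (0.56 and 1.17) was tested only because of its induced arrays and is not ranked against the listed genes. Listed genes under the filter are not plotted. Among them Fst read 7.14 ± 0.71 in induced and 6.37 ± 0.31 in never-induced hippocampus, and 7.81 and 8.23 in VC CA1 against 6.04 in wild-type CA1.

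Other growth factors and activity-regulated genes gave a wider frame. Of 17 tested secreted growth factors other than these, 8 were positive in induced against never-induced hippocampus, with a median of -0.02, and none passed in a comparison of induced, reversed or VC CA1 arrays with their controls. Ccn1, a matricellular protein of immediate early type, read 7.07 ± 0.46 in induced and 6.40 ± 0.15 in never-induced hippocampus, and Igf2, a growth factor that the choroid plexus makes, 11.78 ± 0.17 and 11.28 ± 0.20. Pdgfa, a mitogen of oligodendrocyte precursors, read 11.43 ± 0.18 and 11.63 ± 0.06, and Gas6, a ligand of TAM receptors, 11.09 ± 0.18 and 11.22 ± 0.13. Of 30 tested activity-regulated neuronal genes 20 were positive, with a median of 0.09. Of all tested probe sets 45.65% were positive in that comparison, 46.2% at 5 weeks and 47.9% in VC against wild-type CA1. The CA1 differences of all genes share 1 wild-type array. The list had a median of -0.01 at 1 week, 0.04 at 2 weeks and 0.55 at 5 weeks, where 24 of 30 were positive and Fos, a subunit of AP-1, rose (2.36 ± 0.39 SE; limma, adjusted p = 0.0282). In VC against wild-type CA1, 28 of 30 were positive, with a median of 0.41, and none passed.

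Among these activity-regulated genes the largest differences of induced from never-induced hippocampus were those of Fos (11.31 ± 0.74 in induced and 10.10 ± 0.25 in never-induced hippocampus) and Atf3, a stress-induced factor of the ATF/CREB family (9.98 ± 0.49 and 8.99 ± 0.19). Nptx1, a neuronal pentraxin (11.24 ± 0.35 and 11.66 ± 0.18), and Jun, a partner of Fos (9.85 ± 0.24 and 10.04 ± 0.34), were the most negative. At 1 week, when this list had a median near 0, Bdnf had a difference of 0.57. That of Inhba was 0.53 and is not ranked against the list, since Inhba was tested only because of its induced arrays. At that time 15 of the 30 listed genes were positive, and the highest difference in the list was 0.58. Of all tested probe sets 3.75% had a larger 1-week difference than Bdnf, and Inhba is again not set against that share. Of 10 tested neuropeptides 5 were positive in induced hippocampus, with a median of 0.01. Besides Pdyn, Npy was the most positive (12.37 ± 0.56 and 11.74 ± 0.17), and Tac2 (8.84 ± 0.59 and 9.36 ± 0.23) and Penk (11.05 ± 0.25 and 11.34 ± 0.20) were the most negative. The brighter of the Pdyn probe sets passed at 2 weeks, 5 weeks (1.01 ± 0.19 SE; limma, adjusted p = 0.0481) and in VC CA1 (3.32 ± 0.44 SE; limma, adjusted p = 0.0154).

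Patterns like those of the 2 genes were sought over the 9 hippocampal arrays by Pearson's r of log2 values, as a description without a test, since arrays of 1 time share their treatment. The probe set most like Bdnf was the dimmer one of Pdyn, the dynorphin precursor, with r = 0.97 (0.91 over all 12 arrays). For the brighter Pdyn probe set r was 0.82, and only 0.17 over all 12 arrays. Next after the dimmer one were Asic2, an acid-sensing channel (0.94), Tinf2, a telomere protein (0.93), Lgals1, a galectin (0.93), Dap (0.92) and Tpm4, a tropomyosin (0.92). The dimmer Pdyn probe set read 8.93 and 9.70 on the 1-week arrays, 10.89 and 11.13 on the 2-week arrays and 10.84 on the 5-week array. It read 6.04 and 6.65 in wild type, 6.79 on dox and 6.04 after reversal. The value 6.04 is the floor, so the level there is only bounded from above. The induced minus never-induced difference was 0.07 for Asic2, 0.45 for Lgals1 and 0.60 for Tpm4, beside 0.73 for Bdnf. For this Pdyn probe set it was 3.80 with 1 wild-type array at the floor, and the comparison passed (limma, adjusted p = 0.0212). In VC CA1, Lgals1 was 1.07 and Tpm4 0.68 above wild type, while Asic2 was 0.03 below it.

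Inhba had no match as close. Its nearest probe sets were Sprr1b (r = 0.90), Thrsp (0.88), Ezr (0.88), Emd (0.87), Hspa4 (0.87) and Cidea (0.85), and over all 12 arrays r was 0.00 for Sprr1b, 0.14 for Thrsp, 0.46 for Ezr, 0.76 for Emd, 0.52 for Hspa4 and 0.74 for Cidea. Their induced minus never-induced differences ran from 0.13 for Hspa4 to 0.48 for Emd. Each of these probe sets had its highest hippocampal value on 2-week array 1, as Inhba did. How far these correlations rest on that 1 array was not tested. Bdnf and Inhba correlated with each other at r = 0.72 over the hippocampal arrays and 0.66 over all 12. In hippocampus the highest Bdnf value was that of the 5-week array (12.30) and the highest Inhba value that of 2-week array 1 (8.84).

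**Figure D4:**
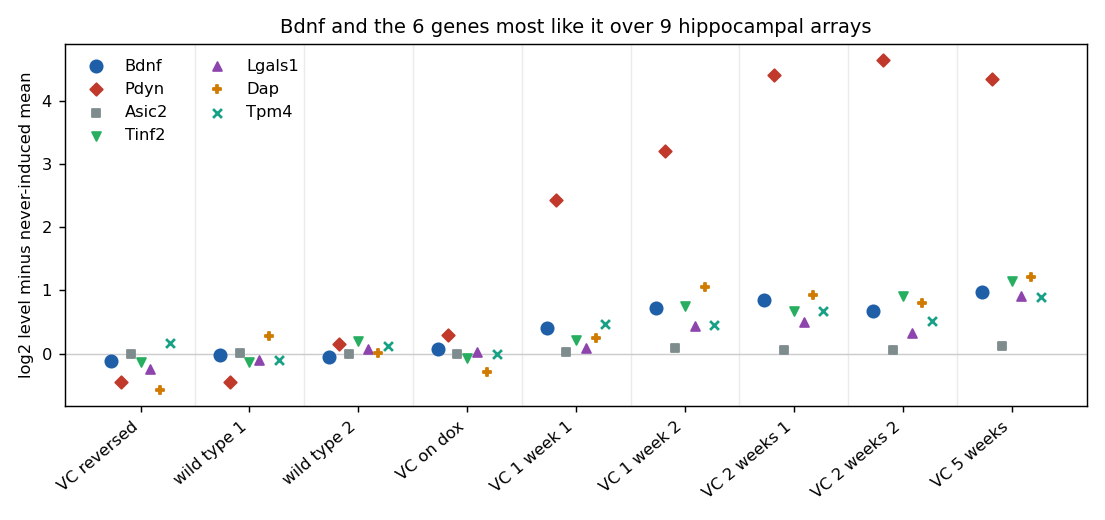
Points give, for each of the 9 hippocampal arrays (horizontal axis), the log2 level minus the never-induced mean of Bdnf and of the 6 genes with the highest correlation with it. The dimmer Pdyn probe set, the one plotted, stands 2.44 to 4.64 above its never-induced mean on the induced arrays. That mean includes 1 array at the floor. Asic2 stays near 0.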

How the data were processed

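The study used 12 Affymetrix MG-U74Av2 arrays, 9 of hippocampus and 3 of CA1. The authors deposited linear intensity values made with GCOS, Affymetrix software, per the submitters' processing notes; no source used here gives its version or algorithm. The 2% trimmed mean of the deposited intensity was 500.3 to 500.4 on wild-type hippocampus array 1 and the CA1 arrays, and 3002 on the others. All arrays were scaled to a trimmed mean of 1000, floored at the 20th percentile (65.7) and log2 transformed. Symbols came from the platform annotation, and promoter sequences from RefSeq (GRCm38.p6).

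Models were fitted with limma 3.58.1 (R 4.3.3; lmFit, eBayes), two-sided, with Benjamini-Hochberg adjustment over 7069 probe sets and a threshold of 0.05, after the code was tested on simulated data. A level with 1 array was assumed to vary like the others. Hippocampi were pooled within each sample, per the series' design text, so p-values measure the spread between pooled samples, and few arrays limit precision. Named list genes were those that passed and the 2 most positive and 2 most negative in induced against never-induced hippocampus, by the brightest probe set of a gene; Fst was added after its values were seen. The members, lists and tests were chosen with earlier results of these data known. Alternatives changed the scaling, floor, filter, variance model, scale block, controls and replicates.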

Additional observations from a re-analysis of the deposited data

How the results depend on the processing

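Over 8 alternatives and leaving out each array in turn, 251 of 254 values of Bdnf and Inhba kept their direction and their side of the threshold, and no value changed sign. The other 3 were Bdnf comparisons that passed. With limma's trend and robust settings these were 5 weeks against never-induced hippocampus (0.98) and the fit with region as a block (0.75). In the fit with region as a block, leaving out 1 array gave differences from 0.70 to 0.81, and it passed only without 1-week array 1. No main fit behind these values passed, so the other values kept their side by not passing. Not all of these fits are distinct. In induced against never-induced hippocampus, wild type alone as never-induced gave the same fit as leaving out VC on dox. There the scale block gave the same fit as leaving out wild-type hippocampus array 1, and the floor settings did not move Bdnf. With the replicate number as a block, which was possible only over the numbered arrays, the induced against never-induced difference was 0.70 for Bdnf and 0.64 for Inhba, and neither passed. The block changed no call. Arrays of equal number did not deviate together (correlations of deviations from -0.23 to 0.20), so the numbers were not taken as pairs. The comparisons with 5 weeks, reversal and wild-type CA1 hold unnumbered arrays and had no such fit.

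The number of probe sets that passed depended more on the settings: for VC against wild-type CA1 it was 33, 0 with the floor at the 40th percentile and 292 without the filter, and for 5 weeks against 1 week 45, and 3 without 1-week array 1. Inhba was dim. With the floor at the 40th percentile (7.85) its CA1 difference was 0.67 instead of 1.17, and its CA1 minus hippocampal effect 0.23 instead of 0.61. The 1 wild-type CA1, 5-week and reversed arrays have no replicate.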
